A study of Drosophila melanogaster with 24 samples.

Results

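Broad peaks are the widest stretches of DNA listed as bound by CLOCK (CLK) or CYCLE (CYC) in heads, testes and ovaries of Drosophila melanogaster. They were chosen by width alone, as every listed peak whose end and start lay 800 bp or more apart. The rule found 385 of the 7810 peaks in the 6 deposited lists, a share of 4.93%. The CYC ovary list held 276 of them, 71.7% of the broad peaks, although it held 25.3% of all peaks.

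The study set out, by its title, to ask what CLK and CYC do in the reproductive system. Chromatin was immunoprecipitated with an antibody against GFP and sequenced (ChIP-seq) for each protein in each tissue. All groups were collected at ZT 10 h, from 200 heads or 200 pairs of gonads, chromatin was sheared to 100 to 500 bp, and 5% was kept as input. The 24 libraries formed 12 groups of 2: GFP and input libraries of CLK head, CYC head, CLK testis, CYC testis, CLK ovary and CYC ovary. The labels do not say which alleles or transgenes carried the tag, what drove them, which strain, age or sex (for heads) was used, or whether there was an untagged control.

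Each protein and tissue had 1 peak list, so no spread between replicates could be measured and no test was made. A difference between proteins or tissues and a difference between the libraries or peak calls behind the lists cannot be told apart. Read depth was unknown. All intervals are exact 95% Clopper-Pearson intervals, which cover the counting of peaks only. The lists gave positions only, with no height or enrichment, and the labelled tissues could not be checked against marker genes.

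CLK and CYC are basic helix-loop-helix PAS proteins that bind DNA as a pair at E-box elements and switch on the clock genes per, tim, vri and Pdp1. PER and TIM return to the nucleus and inhibit the pair, while VRI represses Clk, which closes the feedback loops of the clock. A sequence-specific factor usually gives narrow peaks about as wide as the sheared fragments. Wide intervals in ChIP-seq can hold several neighbouring binding sites, sequences present in many copies, such as histone or ribosomal RNA genes, or long stretches of raised signal.

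Since width chose the peaks, their widths are given as a description. Broad peaks made up 1.48% of the 1016 peaks of the CLK head list and 2.03% of the 394 of CYC head. In testis they made up 1.73% of 2491 CLK peaks and 0.884% of 1583 CYC peaks. In ovary they made up 8.26% of 351 CLK peaks and 14.0% of 1975 CYC peaks. The typical peak differed far less between lists, as the median width over all peaks ran from 272 bp in CYC testis to 312 bp in CYC ovary. The median width of the broad peaks was 919 bp in CLK head, 945 bp in CYC head, 1149 bp in CLK testis, 1041 bp in CYC testis, 1110 bp in CLK ovary and 1372 bp in CYC ovary.

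The threshold fell in a continuous range of widths in most lists. The widest peak left out was 759 bp in CLK head, 770 bp in CYC head, 797 bp in CLK testis, 794 bp in CYC testis, 798 bp in CLK ovary and 795 bp in CYC ovary. The narrowest taken was 812, 805, 803, 802, 828 and 800 bp in the same order. In CYC ovary, 66 broad peaks were under 1000 bp, 124 were from 1000 to under 2000 bp, 31 from 2000 to under 3000 bp, 22 from 3000 to under 4000 bp, 15 from 4000 to under 5000 bp and 18 were wider still. Broad peaks held 49.9% of all base pairs covered by the CYC ovary list, 564 of 1131 kb. The share was 29.2% in CLK ovary and between 3.80% and 10.5% in the head and testis lists.

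**Figure D1:**
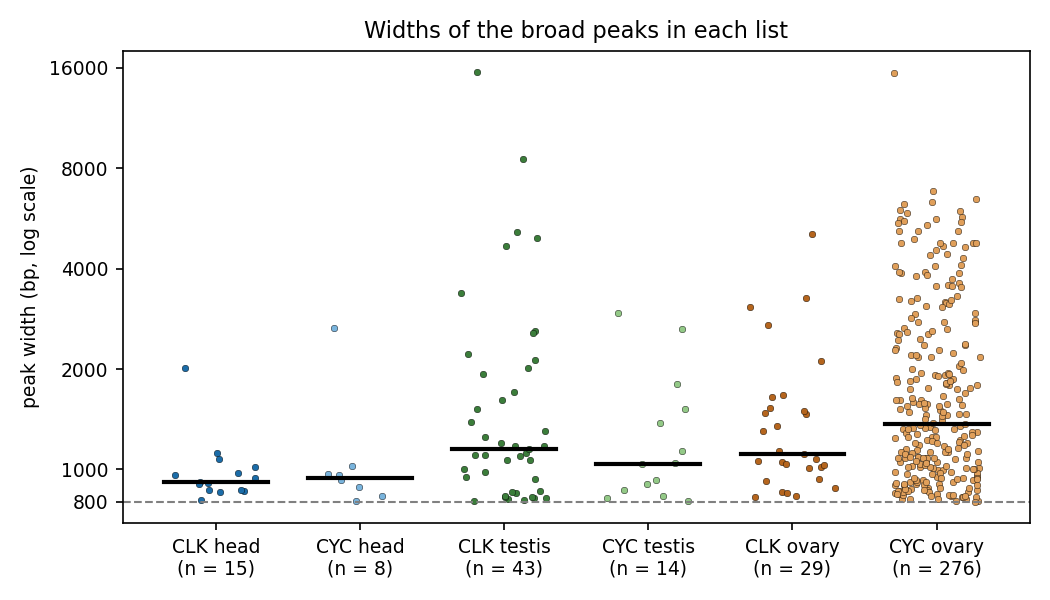
Widths of the broad peaks (vertical axis, bp, log scale) in each of the 6 lists, 1 point a peak, with the median as a bar and the 800 bp threshold as a dashed line. CYC ovary holds 86 of the 106 peaks of 2000 bp or wider, and the 2 highest points are peaks over most of the mitochondrial genome, at 15534 bp in CLK testis and 15460 bp in CYC ovary.

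The widest peaks lay in different places in CYC ovary and elsewhere. Of the 20 peaks of 2000 bp or wider outside CYC ovary, 10 lay on unplaced contigs or the mitochondrial genome. Of the 33 CYC ovary peaks of 4000 bp or wider, 28 lay on the major arms, X or chromosome 4. The other 5 lists together had 6 peaks of 4000 bp or wider, and 1 of these lay on an arm: the CLK testis peak inside MFS17, at 2R 2546949 to 2551616 (4667 bp). MFS17 belongs to the major facilitator family of membrane transporters.

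The head lists held few broad peaks, and clock genes were prominent among them. In CLK head, 6 of 15 broad peaks lay in or within 1 kb of vri, tim or per. In CYC head, 5 of 8 did. Over all protein-coding genes, 0.143% had a broad CLK head peak and 0.0430% a broad CYC head peak in or within 1 kb. Of the 15 core clock genes listed, 3 did in each head list, the same 3 genes.

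At vri, which encodes the bZIP repressor of Clk, each head list had 3 broad peaks side by side within the gene. The CLK peaks lay at 2L 5300902 to 5301919 (1017 bp), 5302214 to 5304234 (2020 bp) and 5305117 to 5306062 (945 bp). The CYC peaks lay at 5300883 to 5301905 (1022 bp), 5302211 to 5304868 (2657 bp) and 5305108 to 5306071 (963 bp). The left edges of the paired peaks were 3 to 19 bp apart, and the middle peak of each trio was the widest broad peak of its list. The larger CYC width there came from the right edge, which lay 634 bp farther out than that of the CLK peak. A separate CLK peak of 224 bp lay inside that extra stretch.

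At tim, whose protein is the partner of PER, the CLK head peak spanned 2L 3507123 to 3508243 (1120 bp) and the CYC head peak 3507008 to 3507813 (805 bp). They lay at the gene end with the higher coordinate and shared 690 bp. At per, the CLK peak at X 2684540 to 2685615 (1075 bp) and the CYC peak at 2684541 to 2685425 (884 bp) started 1 bp apart, just outside the gene end with the lower coordinate. A further CLK peak inside per, of 812 bp, was matched by a CYC peak of 562 bp, which was below the width threshold. No broad peak of a testis or ovary list lay in or within 1 kb of vri, tim or per.

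Other broad head peaks lay at genes of varied function. CLK head had one of 959 bp at Cipc, the fly relative of a vertebrate inhibitor of CLOCK, and a narrower CYC head peak met it. It had one of 978 bp in scrib, an epithelial polarity gene, one of 919 bp at pelo, a ribosome rescue factor, and one of 911 bp at mrn, a subunit of the TFIIH transcription factor. A peak of 901 bp lay between HisRS, a histidyl-tRNA synthetase, and Bx, a LIM-only transcription cofactor, touching both. None of these last 4 met a CYC head peak. CYC head had one of 969 bp at Cyp28d2, a cytochrome P450, which also lay within 1 kb of the muscle gene Msp300, one of 927 bp at mod(mdg4), a chromatin protein gene, and one of 833 bp in brp, which encodes a protein of the presynaptic active zone.

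In testis, the list of core clock genes had 1 member with a broad peak, Clk itself, in both lists. The CLK testis peak lay at 3L 7764353 to 7766290 (1937 bp) and the CYC testis peak at 7764179 to 7767132 (2953 bp), so the CYC peak held the whole CLK peak. It also met a second CLK testis peak of 390 bp next to it. CLK head had peaks of 401 and 477 bp in the same stretch of the gene and no broad one. In CYC ovary and CLK ovary, the peaks at Clk were under 800 bp and lay elsewhere in or near the gene.

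The eye-colour gene w was the 1 place on the arms, X or chromosome 4 where 3 lists had a broad peak. The widths there were 2565 bp in CLK testis (X 2790577 to 2793142), 1798 bp in CYC testis (2791371 to 2793169) and 866 bp in CLK head (2792204 to 2793070). CYC head and CYC ovary had narrower peaks there, of 272 and 252 bp, and CLK ovary had none. The annotation also places this stretch inside kirre, an immunoglobulin-family gene that overlaps w. In both testis lists and CLK head a further peak lay at the other end of w, and the gap between it and the broad peak was 2947 bp in CLK testis, 2963 bp in CYC testis and 3171 bp in CLK head, with no peak inside it. The gene w is a common marker on fly transgenes, in a mini-white form that lacks most of the first intron. Whether these flies carried one was not given in the sources used here, and its part in these peaks was not tested.

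A list of 12 genes often used in fly constructs holds w, y, v, Act5C, Clk, cyc and the Hsp70 genes. It also had a broad CYC testis peak of 2637 bp at Act5C, the main cytoplasmic actin gene, at X 5898333 to 5900970. A broad CLK ovary peak of 1110 bp lay 1 kb or less from the body-colour gene y. The list had 1 member with a broad peak in CLK head (w), 2 in CLK testis (Clk and w), 3 in CYC testis (Clk, w and Act5C), 1 in CLK ovary (y) and 0 in CYC head and CYC ovary. Over all protein-coding genes, 0.143% had a broad CLK head peak and 0.0430% a broad CYC head peak. The share was 0.530% in CLK testis, 0.0931% in CYC testis, 0.272% in CLK ovary and 1.58% in CYC ovary. At any width, 3 of the 12 had a peak in CLK head and 1 in CYC head. The count was 7 in CLK testis, 5 in CYC testis, 2 in CLK ovary and 6 in CYC ovary. The 12 genes come from 7 names, with several Hsp70 genes under 1 of them, so these counts need not be separate loci. For all coding genes, the any-width share was 9.39% in CLK head, 4.28% in CYC head and 18.8% in CLK testis. It was 10.9% in CYC testis, 1.91% in CLK ovary and 11.8% in CYC ovary.

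**Figure D2:**
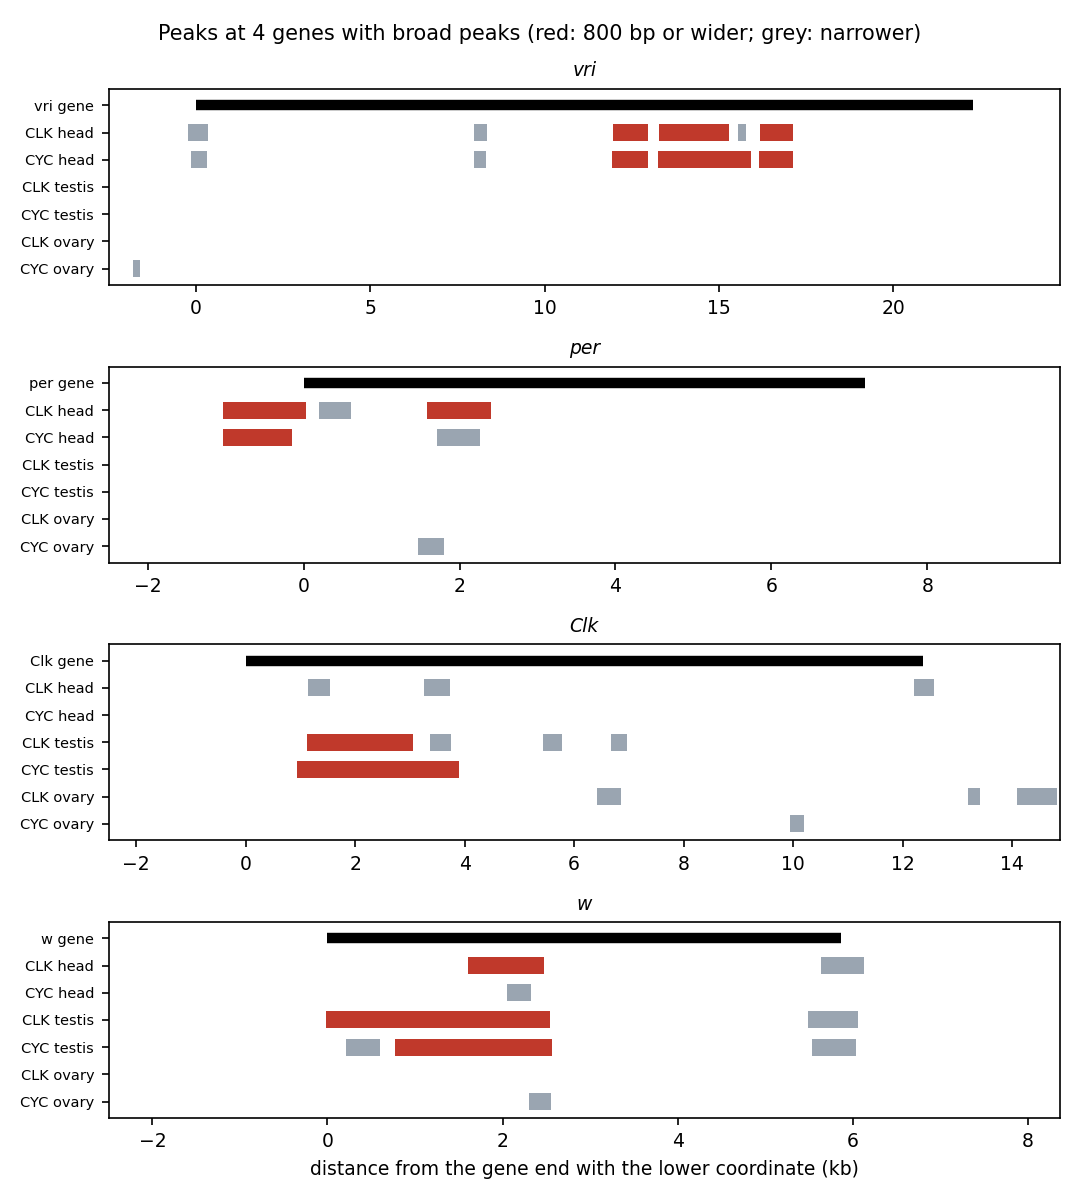
Peaks at vri, per, Clk and w, drawn as bars along the distance in kb from the gene end with the lower coordinate, 1 row a list, with the gene in black. Red bars are peaks of 800 bp or wider and grey bars narrower ones: the head lists have 3 paired broad peaks in vri, the testis lists share a broad peak in Clk, and the testis lists and CLK head share one in w.

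Outside the head, broad peaks also lay at loci with many copies. Multi-copy loci were defined as the histone gene cluster, genes for ribosomal, transfer or small nuclear RNA, the Y, contigs, the mitochondrial genome and genes with 2 or more like-named neighbours within 50 kb. Like-named meant symbols alike up to a numbered ending. Genes known only by CG numbers and families named otherwise, such as thetaTry, alphaTry and epsilonTry, were therefore not counted, so the counts can be too low. They held 44.2% of the CLK testis broad peaks (19 of 43, interval 29.1 to 60.1) against 10.4% of the narrower peaks of that list. In CLK ovary they held 24.1% (7 of 29, 10.3 to 43.5) against 9.63%, and in CYC ovary 18.5% (51 of 276, 14.1 to 23.6) against 11.4%. Outside the histone cluster, Y, contigs and mitochondrial genome, CYC ovary had 6 of 231 broad peaks at multi-copy loci (2.60%, 0.959 to 5.57). Its narrower peaks outside them had 5.46% (4.40 to 6.70). CYC testis had 1 of 14 of all its broad peaks at multi-copy loci, a share of 7.14% against 9.62%. None of the 15 and 8 broad head peaks lay at such a locus, where the narrower head peaks had 1.80% in CLK and 1.55% in CYC. The 5 broad peaks at precursor or pseudogene copies of ribosomal RNA near the end of X are not in these counts, because the table does not class those genes as ribosomal RNA.

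The histone gene cluster is a tandem array that carries the genes for the core and linker histones. In the annotation it spans 2L 21416953 to 21541681 and holds 111 histone genes. CYC ovary had 113 peaks there, 30 of them broad, and they covered 59.1% of its 125 kb. CLK testis had 89 peaks, 5 of them broad, that covered 30.8%. CYC testis had 41 peaks and CLK ovary 8, none broad, that covered 8.78% and 1.31%, and neither head list had a peak there. The same array was thus listed in both gonads and for both proteins, but broad peaks covered 30.1% of it in CYC ovary and 3.92% in CLK testis. The longest run of broad peaks in any list was here, with 24 CYC ovary peaks within 10 kb of the next from 21417820 to 21488208. Of 115 histone genes in all, 75 had a broad CYC ovary peak in or within 1 kb and 16 a broad CLK testis peak. The shares over all protein-coding genes were 1.58% and 0.530%. At any width, 111 of the 115 had a CYC ovary peak, 109 a CLK testis peak and 78 a CYC testis peak. The genes lie close together, so 1 peak can count for several. How reads that fit several copies were placed is not stated in the labels.

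Most contig peaks fell on 1 unplaced contig. CLK testis had 16 peaks there, 8 of them broad, with widths of up to 8548 bp, and CYC ovary had 17, 10 of them broad, with widths of up to 5186 bp. CLK ovary had 8 with 1 broad and CYC testis 6 with none broad. The broad CLK testis peaks included 42640 to 47571, 55103 to 58477 and 68305 to 76853 on it. RefSeq lists precursor ribosomal RNA genes at 42623 to 49485, 55104 to 59294 and 66807 to 74924 on a sequence that it assigns to X or Y without naming it, and the contig was not matched to that sequence here. A second contig held 3 peaks of CYC ovary, all broad, and only narrower ones of the testis lists and CLK ovary.

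On the mitochondrial genome, a single peak ran from 36 to 15570 in CLK testis and from 7 to 15467 in CYC ovary, across the protein, ribosomal and transfer RNA genes that the table lists there. CLK ovary had 5 broad mitochondrial peaks, the widest of 5093 bp, and CYC testis had 1 of 1516 bp beyond those genes. The head lists had no mitochondrial peak. The 5S ribosomal RNA array on 2R, with 96 genes in the table, held 3 broad CYC ovary peaks, of 996, 967 and 824 bp, between 19743036 and 19747978. The ribosomal RNA genes and pseudogenes near the end of X held 3 broad CYC ovary peaks, 1 of CLK testis and 1 of CLK ovary.

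**Figure D3:**
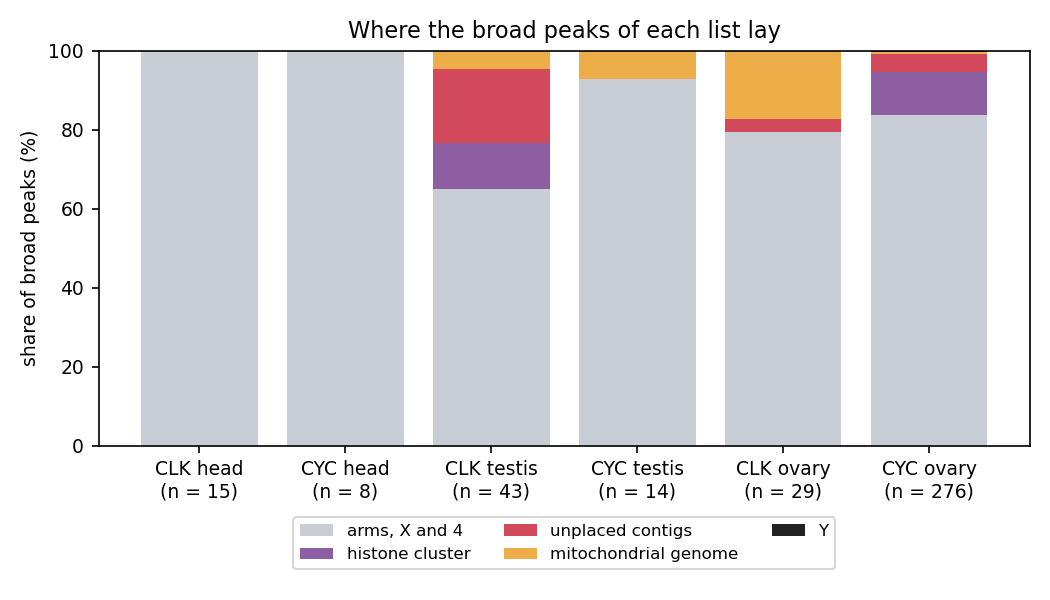
Share of the broad peaks of each list (vertical axis, %) on the arms, X and chromosome 4 outside the histone cluster, in the histone cluster, on unplaced contigs, on the mitochondrial genome and on Y. The head lists lie wholly in the first class, and CLK testis has the lowest share there, 65.1%.

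Of the 276 broad CYC ovary peaks, 231 lay on the arms, X and chromosome 4 outside the histone cluster (83.7%, interval 78.8 to 87.9). Among these 231, 6 were at other multi-copy loci as defined above and 3 at the ribosomal copies near the end of X, which left 222. The broad peaks of the other lists outside the histone cluster, Y, contigs and mitochondrial genome numbered 15 in CLK head, 8 in CYC head, 28 in CLK testis, 13 in CYC testis and 23 in CLK ovary. The comparisons of gene context that follow use the 231 and these sets.

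Broad CYC ovary peaks rarely reached the end of a gene. Of the 231, 4 crossed an end of a protein-coding gene (1.73%, 0.474 to 4.37). Of the 1592 narrower CYC ovary peaks, 149 did (9.36%, 7.97 to 10.9), although a wider interval has more room to reach an end. The 4 lay at udd (4065 bp), CG42249 (917 bp), SdicB (880 bp) and the neighbours CG43850 and CG42784 (844 bp), named here because they were so few.

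The other lists differed among themselves. Broad peaks crossed an end in 5 of 15 cases in CLK head (33.3%, 11.8 to 61.6), 0 of 8 in CYC head (0 to 36.9), 5 of 28 in CLK testis (17.9%, 6.06 to 36.9), 2 of 13 in CYC testis (15.4%, 1.92 to 45.4) and 3 of 23 in CLK ovary (13.0%, 2.78 to 33.6). The interval of broad CYC ovary peaks lay below those of CLK head and CLK testis and overlapped those of CYC head, CYC testis and CLK ovary. Among narrower peaks, the share was 25.1% in CLK head and 31.3% in CYC head, but 4.55% in CLK testis, 4.49% in CYC testis and 4.65% in CLK ovary, whose intervals also overlapped that of broad CYC ovary peaks.

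The distance of the peak midpoint to the nearest coding gene end showed a like contrast within CYC ovary. It was 1 kb or less for 18 of 231 broad CYC ovary peaks (7.79%, 4.68 to 12.0) and 667 of 1592 narrower ones (41.9%, 39.5 to 44.4). For broad peaks of the other lists it was so in 46.7% of CLK head, 37.5% of CYC head, 46.4% of CLK testis, 15.4% of CYC testis (2 of 13, 1.92 to 45.4) and 26.1% of CLK ovary peaks (6 of 23, 10.2 to 48.4). The intervals of CYC testis and CLK ovary overlapped that of CYC ovary. For their narrower peaks it ran from 29.2% in CLK ovary to 71.5% in CYC head. Among CYC ovary peaks of 2000 bp or wider it was so for 0 of 77, which allows a share of up to 4.68%. A peak of 2000 bp reaches 1 kb to each side of its midpoint, so this measure and the crossing of an end draw on the same distances. The median distance was 3451 bp for broad CYC ovary peaks, 4118 bp for those of 2000 bp or wider and 1326 bp for narrower ones.

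The peaks fell both within and between genes. Of the broad CYC ovary peaks, 114 of 231 lay wholly inside a protein-coding gene (49.4%, 42.7 to 56.0), and 113 lay wholly outside such genes (48.9%, 42.3 to 55.6). The share outside was 32.6% for narrower CYC ovary peaks (30.3 to 35.0). For broad peaks of the other lists it was 0 of 15 in CLK head, 2 of 8 in CYC head, 3 of 28 in CLK testis, 4 of 13 in CYC testis (30.8%, 9.09 to 61.4) and 5 of 23 in CLK ovary (21.7%, 7.46 to 43.7).

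No gene of any kind lay within 1 kb of 73 of the 231 (31.6%, 25.7 to 38.0), against 184 of 1592 narrower CYC ovary peaks (11.6%, 10.0 to 13.2). The other list of the same protein in a gonad, CYC testis, had 3 of 13 broad peaks there (23.1%, 5.04 to 53.8) and 14.1% of its narrower ones. CLK ovary had 2 of 23 (8.70%, 1.07 to 28.0) and 12.3%. CLK head, CYC head and CLK testis had no broad peak there, of 15, 8 and 28, and 2.40%, 1.04% and 8.27% of their narrower ones. Within CYC ovary, the share was near the same at every width, at 31.2% of 154 peaks under 2000 bp, 32.5% of 77 of 2000 bp or wider and 32.1% of 28 of 4000 bp or wider. Around the 73 peaks a median of 10.0 coding genes lay within 50 kb, as around the 184 narrower ones, and 3 of the 73 had none. Over all 231 broad and 1592 narrower peaks the medians were 12.0 and 13.0.

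**Figure D4:**
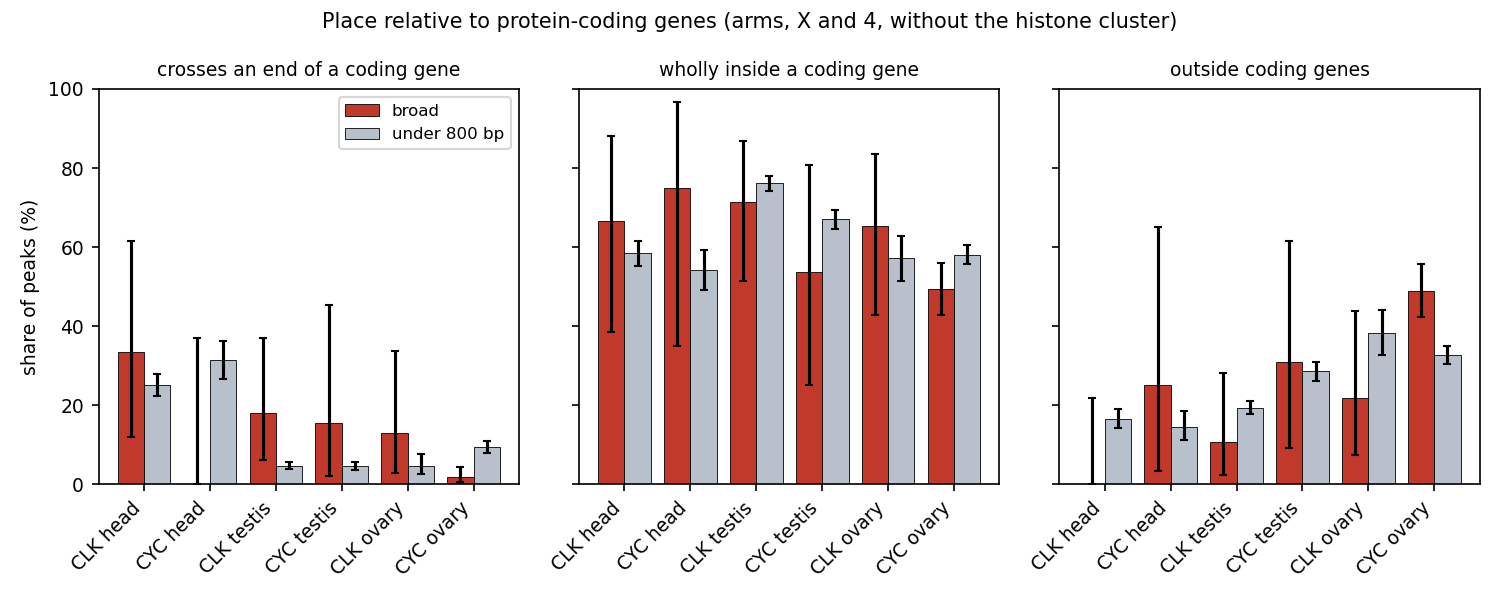
Share of peaks (vertical axis, %) that cross an end of a protein-coding gene (left), lie wholly inside one (middle) or lie outside all of them (right), by list, for broad peaks (red) and narrower ones (grey) on the arms, X and chromosome 4 outside the histone cluster. Error bars are exact 95% intervals of the counts. Within CYC ovary, broad peaks cross an end in 1.73% and narrower ones in 9.36%, while the narrower peaks of the other gonad lists lie between 4.49% and 4.65%.

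The widest CYC ovary peaks on the arms lay in or near genes of many kinds. The widest was 6818 bp and overlapped alpha4GT2, which encodes a glycosyltransferase, at 3R 25834842 to 25841660. Peaks of 6477 bp at Mid1, 6323 bp at bs, the fly serum response factor, 6237 bp at CG13954, 5981 bp at hbs, an immunoglobulin-family adhesion gene, and 5865 bp at CG33267 followed. Those of 5937, 5717 and 5647 bp had no gene within 1 kb, and the middle one of these lay 21170 bp from the nearest coding gene end. Of these 9 peaks, 1 met a peak of another list, that of 5937 bp, which met CYC testis.

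Broad CYC ovary peaks often had close neighbours. Of the 276, which include those in the histone cluster and on contigs, 167 had another CYC ovary peak within 500 bp. In the other lists it was 4 of 15 in CLK head, 3 of 8 in CYC head and 19 of 43 in CLK testis. CYC testis had 5 of 14 and CLK ovary 9 of 29. No such count is given for narrower peaks. When peaks within 500 bp were joined, the 231 peaks formed 192 stretches with a median span of 2344 bp, and 89 of these held more than 1 peak. The other lists were likewise joined without the histone cluster, Y, contigs and mitochondrial genome. Among these stretches, a span of 5000 bp or more was reached by 29 of CYC ovary, 1 of CLK head and 1 of CYC head. None of the testis or CLK ovary stretches reached it, although single peaks at the excluded loci were up to 15534 bp in CLK testis and 5093 bp in CLK ovary. Both head stretches were vri, at 5160 bp and 5188 bp. The longest in CYC ovary were 8943 bp at CG12885, 8898 bp at Gas8 with 3 broad peaks, and 8889 bp at RYa-R, which encodes a neuropeptide receptor. These were chosen after their spans were seen.

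On X, broad peaks were 17.0% of the CYC ovary list's broad peaks (47 of 276, 12.8 to 22.0), against 21.1% of its narrower peaks, and the intervals overlapped. The values were 20.7% against 31.4% in CLK ovary, 4.65% against 1.31% in CLK testis, 14.3% against 3.44% in CYC testis, 26.7% against 14.3% in CLK head and 12.5% against 10.4% in CYC head. The broad counts behind them were 6, 2, 2, 4 and 1 peaks, so these shares were poorly fixed. Chromosome 4 held 1 broad CYC ovary peak and 77 narrower ones.

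Sharing between proteins was read against the share of all peaks of a list that met a peak of the partner protein in the same tissue by at least 1 bp. That share was 11.5% in CLK head and 29.4% in CYC head, 8.91% in CLK testis and 14.3% in CYC testis, and 31.3% in CLK ovary and 5.11% in CYC ovary. Of the broad peaks, 9 of 15 met the partner in CLK head (60.0%, 32.3 to 83.7) and 5 of 8 in CYC head (62.5%, 24.5 to 91.5). In testis it was 15 of 43 for CLK (34.9%, 21.0 to 50.9) and 3 of 14 for CYC (21.4%, 4.66 to 50.8). In ovary it was 15 of 29 for CLK (51.7%, 32.5 to 70.6) and 33 of 276 for CYC (12.0%, 8.37 to 16.4). Without the histone cluster, Y, contigs and mitochondrial genome it was 10 of 28 in CLK testis (35.7%) and 2 of 13 in CYC testis (15.4%). In ovary it was then 9 of 23 for CLK (39.1%) and 23 of 231 for CYC (9.96%). Of all narrower CLK ovary peaks, 29.5% met the partner.

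A wide peak has more room to meet another. With each broad peak cut to 200 bp around its midpoint, the shares over all broad peaks were unchanged in CLK head, CYC head and CYC testis. They were 20.9% in CLK testis, 48.3% in CLK ovary and 6.88% in CYC ovary. By the same measure the narrower peaks stood at 7.80% in CLK testis, 28.6% in CLK ovary and 3.71% in CYC ovary. For CYC ovary the intervals were 4.20 to 10.5 for broad and 2.86 to 4.72 for narrower peaks, which overlapped.

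Between tissues, the share of all peaks that met a peak of the same protein was 3.05% in CLK head, 3.05% in CYC head, 3.93% in CLK testis, 13.8% in CYC testis, 21.7% in CLK ovary and 10.4% in CYC ovary. Of the broad peaks it was 6.67%, 25.0%, 27.9%, 57.1%, 44.8% and 21.0% in the same order. With 200 bp around the midpoint it was 6.67%, 12.5%, 11.6%, 35.7%, 27.6% and 10.9%. By the 1 bp measure, but without the histone cluster, Y, contigs and mitochondrial genome, it was 28.6% in CLK testis and 53.8% in CYC testis. In ovary it was then 7 of 23 for CLK (30.4%) and 39 of 231 for CYC (16.9%). Of all narrower CLK ovary peaks, 19.6% met CLK in another tissue. By the midpoint measure the narrower CYC ovary peaks stood at 7.89% (6.65 to 9.27), an interval that overlapped the 7.45 to 15.2 of its broad peaks.

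Broad CYC ovary peaks met gonad lists. Of the 276, 58 met CYC testis (21.0%), 45 met CLK testis (16.3%) and 33 met CLK ovary (12.0%), against 8.48%, 7.30% and 4.00% of its narrower peaks. None met CLK head or CYC head, which allows a share of up to 1.33% for each, and narrower CYC ovary peaks met these lists in 0.235% and 0.294%, which is also below that limit. In all, 174 met no other list, 76 met 1, 18 met 2 and 8 met 3. Outside the histone cluster, contigs, Y and mitochondrial genome, 39 of the 231 met CYC testis, 23 met CLK ovary and 9 met CLK testis, so most of the meetings with CLK testis were at those excluded loci. The CYC ovary list as a whole met few head peaks, since 4 CLK head and 5 CYC head peaks met any peak of it.

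Most broad CYC ovary peaks that met another list met only narrower peaks of it, and most peaks of every list are narrower. A broad peak was met by 3 of the 58 that met CYC testis. It was so for 15 of the 45 that met CLK testis and 7 of the 33 that met CLK ovary. Broad peaks were 0.884%, 1.73% and 8.26% of all peaks of those lists, in the same order. Read from the other side, 73 of the 211 CYC testis peaks that met CYC ovary met a broad peak of it, as did 61 of 174 CLK testis peaks (35.1%) and 45 of 110 CLK ovary peaks. Outside the histone cluster, contigs, Y and mitochondrial genome it was 50 of 156 for CYC testis, 10 of 64 for CLK testis (15.6%) and 27 of 84 for CLK ovary.

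**Figure D5:**
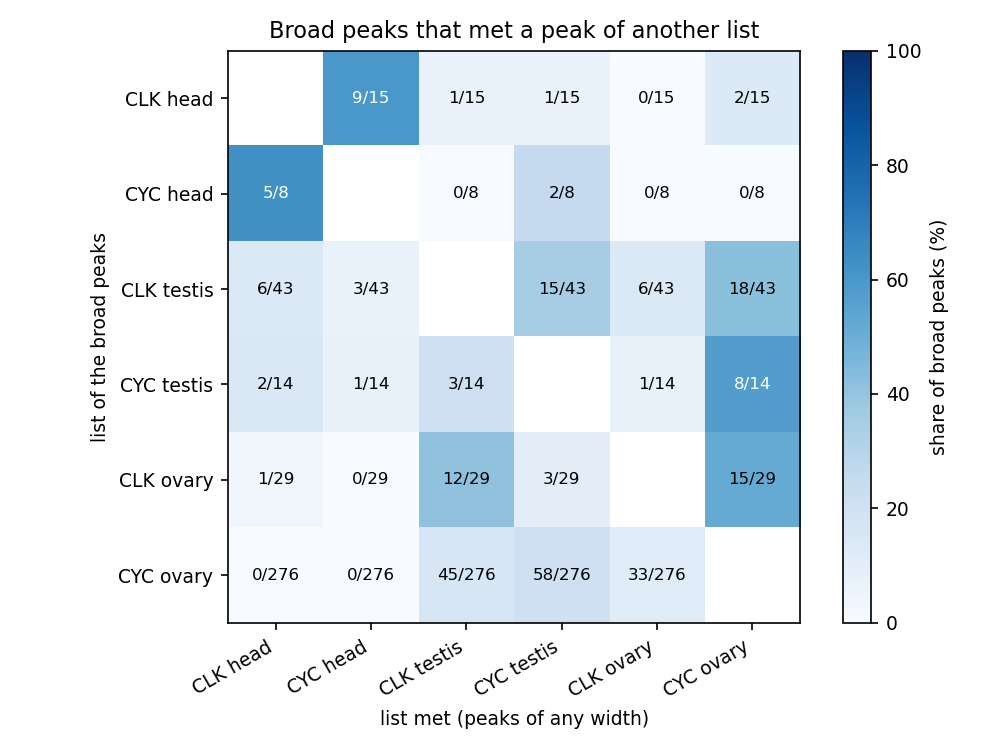
Broad peaks of each list (rows) that met a peak of any width of another list (columns) by 1 bp or more, as counts over the number of broad peaks, with the share in colour (%). The CYC ovary row has 0 of 276 in both head columns, and the head lists meet each other in 9 of 15 and 5 of 8.

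When overlapping broad peaks of all lists were joined, they formed 344 loci, of which 315 had broad peaks in 1 list and 29 in 2 or 3. None had broad peaks in 4 or more lists. The 4 loci with 3 lists were w, a pair on the mitochondrial genome and 1 on the contig with most peaks. Of the 29, 18 lay on the arms, X or chromosome 4 outside the histone cluster.

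In ovary, broad peaks of both proteins coincided in the same stretch at 4 places on the arms outside ribosomal genes. They lay in CG14636 (CLK 3065 bp, CYC 3887 bp, 3R 4207666 to 4211597), in B4 (CLK 1466 bp, CYC 4537 bp, 2L 13522339 to 13526876), in CG7900 (CLK 1041 bp, CYC 3251 bp, 3R 8096462 to 8099713) and on 3L from 20213309 with no gene within 1 kb (CLK 1354 bp, CYC 932 bp). In B4 and CG7900 the CYC peak held the whole CLK peak. Between the CYC lists of testis and ovary, broad peaks met in GEFmeso, a guanine nucleotide exchange factor gene, and at 2 places with no gene within 1 kb, on 2R from 18358569 to 18361725 and on 3R from 9281096. CLK testis and CLK ovary shared one in Maf1, a repressor of RNA polymerase III, and CLK testis and CYC ovary shared the one in MFS17.

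Among the other fixed gene groups, few members had a broad peak. Of 22 eggshell and yolk genes, 1 did, Vm34Ca, which encodes a vitelline membrane protein, with a CYC ovary peak of 1869 bp 1 kb away. A CYC ovary peak of any width was found at 8 of the 22, against 11.8% of all protein-coding genes. Of 39 mucin and glue genes, 2 had a broad CLK ovary peak (Muc96D and Mur11Da) and 1 a broad CYC ovary peak (Muc68E). Of 18 piRNA pathway genes, which silence transposons in the germline, 1 did, tej, with a CLK ovary peak of 1019 bp. None of the 14 Stellate genes or 19 heat shock genes had a broad peak in any list. For comparison, 1.58% of all protein-coding genes had a broad CYC ovary peak in or within 1 kb, 0.272% a CLK ovary, 0.530% a CLK testis and 0.0931% a CYC testis one.

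The CYC testis broad peaks outside these groups included a pair inside GluClalpha, a glutamate-gated chloride channel gene, of 1040 and 927 bp, and one of 901 bp at CG7213. All 3 met narrower CYC ovary peaks. Of the 14 broad CYC testis peaks, 8 met CYC ovary (57.1%, 28.9 to 82.3) and 3 met CLK testis (21.4%, 4.66 to 50.8). Narrower CYC testis peaks met these lists in 12.9% and 14.2%. CLK ovary had broad peaks of 2717 bp in Maf1, 2119 bp in BckdhB, a subunit of a branched-chain keto acid dehydrogenase, 1648 bp at the carboxylesterase genes alpha-Est9 and alpha-Est10, 1674 bp within 1 kb of CR41320, 1529 bp at CG5681 and 1474 bp at CG43968. Of these, those in Maf1 and at CG5681 met peaks of other lists.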

How the data were processed

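The submitters' processing notes name build dm6 and Bowtie2, fastp, SAMtools, Picard, deepTools, ChIPseeker and MACS2, with no versions. Their settings, the peak threshold, the placing of reads that fit several sites and the pooling of replicates are not stated there. The authors deposited 6 peak lists of 3 columns (chromosome, start, end), matched to tissues by the initials in their names. A width of 199 bp was the lowest, so starts may count from 0 or 1, and positions are printed as deposited. There were 0 columns of other samples.

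Genes came from the RefSeq table of Release 6 plus ISO1 MT (17872 genes, 13962 protein-coding), which gave no strand or exons. A peak was named by every gene it overlapped, or otherwise by the nearest within 1 kb. Named were the 10 widest peaks of each list outside the histone cluster, up to 20 loci broad in 2 or more lists, and broad-peak members of the gene lists. The peaks, lists and measures were chosen with earlier results of these data known. The overlap functions were tested on simulated peaks. Python 3.11.15 and SciPy 1.17.1 were used. Base composition, repeats and motifs need a genome sequence and were not analysed here, nor was overlap with transposable elements. Other settings were tried, as the closing section gives.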

Additional observations from a re-analysis of the deposited data

How the results depend on the processing

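Of 144 alternative values, 106 moved by less than the limits set and 38 by more. For counts the limit was a ratio of 1.5. For shares it was wide, since 40.0% against 60.0% of CLK head peaks meeting the partner stayed within it. Counts and shares have no sign, so none could reverse. No paired analysis was possible because each protein and tissue had 1 list. The planned base composition was not run. Shares of the head lists and of CYC testis rest on 8 to 15 broad peaks, and read depth was unknown. The reason for each shift was not tested unless the setting itself gives it.

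With a width minimum of 700 bp the number of broad peaks was 23 in CLK head, 69 in CLK testis and 26 in CYC testis. With 1000 bp it was 4 in CLK head, 2 in CYC head and 8 in CYC testis, the share meeting the partner was 100% in CLK head and in CYC head, and the share on X in CYC head was 0%. With peaks within 500 bp joined first there were 101 in CLK testis, 46 in CYC testis and 44 in CLK ovary. Without the histone cluster, Y, contigs and mitochondrial genome, CLK testis had 28.

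With a reciprocal overlap of 50% the share meeting the partner was 9.30% in CLK testis, 17.2% in CLK ovary and 2.17% in CYC ovary. The share meeting the same protein in another tissue was then 0% in CLK head and CYC head, 2.33% in CLK testis, 14.3% in CYC testis, 3.45% in CLK ovary and 2.54% in CYC ovary. With 200 bp around the midpoint, the share meeting the partner was 20.9% in CLK testis and 6.88% in CYC ovary, and that meeting another tissue 11.6% and 10.9%.

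The share with a midpoint near a gene end is given here over all broad peaks, with the histone cluster, Y, contigs and mitochondrial genome included. At 1 kb this share was 37.5% in CYC head, 44.2% in CLK testis and 17.0% in CYC ovary. CYC testis had 2 of 14 and CLK ovary 9 of 29. With a window of 500 bp, the share was 0% in CYC head, 25.6% in CLK testis and 11.6% in CYC ovary. With 3 kb it was 72.1% in CLK testis, 57.1% in CYC testis, 65.5% in CLK ovary and 46.4% in CYC ovary. For the share with no gene within 1 kb, alternatives were chosen after seeing the data. Before any change this share was 20.9% in CLK testis, 28.6% in CYC testis, 13.8% in CLK ovary and 31.5% in CYC ovary. It was 0% in CLK testis without the excluded loci. From 2000 bp on it was 63.6% in CLK testis (7 of 11), and 0% in CYC testis (0 of 2) and CLK ovary (0 of 5). Those 7 lay on the unplaced contig or the mitochondrial genome. The contig was not matched to the unnamed X or Y sequence of RefSeq ribosomal RNA genes, so those genes could not be counted near its peaks. The shares over all broad peaks of CLK testis, CLK ovary and CYC ovary include contig peaks, so they do not show that genes were absent there. From the midpoint it was 39.1% in CYC ovary (108 of 276), and 40.7% over the 231.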

Other observations

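Among the 77 CYC ovary peaks of 2000 bp or wider on the arms, X and chromosome 4 outside the histone cluster, 5 had widths within 30 bp of each other. They were 4761 bp at Gas8 on X, 4780 bp in mwh and 4784 bp in Papss on 3L, and 4786 bp on 2L and 4790 bp on 3L with no gene within 1 kb. These were picked out after the widths were seen, and no genome sequence was used to compare them.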
